A study of Mus musculus with 9 samples.

Results

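The tricarboxylic acid cycle enzymes described here are 9 genes, Cs, Idh3a, Idh3b, Ogdh, Suclg1, Suclg2, Fh1, Mdh1 and Mdh2, chosen by gene symbol from the 23420 genes listed for mouse kidney cortex. All 9 were found, and all 9 were among the 15098 genes tested, whose mean over the libraries reached 10 normalized counts. The Fasted group was 4 libraries from male C57/BL6 mice that had no food for 16 h before they were killed. The Fed group was 5 libraries from male C57/BL6 mice with free access to chow. The labels give no genotype, age, litter or batch, and each library came from a cortex piece of about 50 mg. The question the groups address is how transcript levels in the kidney differ between the fasted and the fed state. The labels do not say outright that each library is a separate mouse, so p-values measure the spread between these samples.

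The cycle runs in the mitochondrial matrix. It takes in acetyl groups from carbohydrate, fat and amino acids, oxidises their carbon to carbon dioxide, and passes electrons to the respiratory chain. Its intermediates also leave for other routes: malate and oxaloacetate feed glucose synthesis, which the kidney cortex carries out during a fast, and glutamine carbon enters as 2-oxoglutarate. Proximal tubule cells, the most numerous cells of the cortex, are rich in mitochondria and rely on oxidative metabolism. The members do not cover the whole cycle, since succinate dehydrogenase and several subunits are among the 13 other cycle genes tested beside them. Mdh1 is the cytosolic malate dehydrogenase, and its reaction lies outside the matrix.

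In the fasted kidneys the mean transcript level of Cs fell by 18.3% and that of Idh3a fell by 22.6% relative to the fed kidneys, and no member was called higher. Ogdh and Mdh2 were also lower in each fasted library than in each fed library, but did not pass the adjusted threshold. The other 5 members had overlapping groups and were not called. Levels are normalized counts, meaning reads per gene divided by 1 size factor per library. Changes are Fasted over Fed on the log2(value + 1) scale with the standard error (SE), and called means a Benjamini-Hochberg adjusted p under 0.05 over all 15098 genes in limma's moderated test. The reads per library lay between 18902645 and 27186745 in the fasted group and between 19638174 and 32469467 in the fed group. The lowest value of any member in any library was 2803 normalized counts, in Idh3a.

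Of the 9 members, 2 were called lower and 0 higher, against 5.25% of all tested genes called lower and 5.72% called higher. Groups did not overlap for 4 members, each of them lower in the fasted group, against 6.64% of all tested genes without overlap and lower, and 7.62% without overlap and higher. The median log2 change of the 9 members was -0.13, beside a median of 0.000886 over all tested genes. Of the members 5 had a change below 0, and 49.8% of all tested genes did. The members' log2 changes reached a size of 0.45 at most, in Mdh2, which was not called. The 2 called members changed by -0.29 (Cs) and -0.37 (Idh3a), beside a median of -0.47 over all genes called lower. Over all called genes the median size of change was 0.49. Called genes are selected by passing the threshold, so the maximum over all members is not a like measure.

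The promoters of Cs, Ogdh and Mdh2 are shown because these 3 genes had non-overlapping groups in the same direction and an entry in the RefSeq promoter table of GRCm38.p6, which matched 8 of the 9 members. Each sequence covers 250 bases before and 50 bases after an annotated start, on the plus strand. Capitals mark the cAMP response element TGACGTCA and the GC box GGGCGG or its reverse complement CCGCCC.
Cs, chr10:128337477-128337776: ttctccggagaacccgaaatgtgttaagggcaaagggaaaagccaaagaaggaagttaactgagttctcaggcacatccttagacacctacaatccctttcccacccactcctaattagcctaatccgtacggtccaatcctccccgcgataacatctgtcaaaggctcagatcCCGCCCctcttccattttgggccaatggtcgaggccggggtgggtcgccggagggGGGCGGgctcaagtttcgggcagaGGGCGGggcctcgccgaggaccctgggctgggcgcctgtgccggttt
Ogdh, chr11:6291347-6291646, the first of 6 annotated start windows: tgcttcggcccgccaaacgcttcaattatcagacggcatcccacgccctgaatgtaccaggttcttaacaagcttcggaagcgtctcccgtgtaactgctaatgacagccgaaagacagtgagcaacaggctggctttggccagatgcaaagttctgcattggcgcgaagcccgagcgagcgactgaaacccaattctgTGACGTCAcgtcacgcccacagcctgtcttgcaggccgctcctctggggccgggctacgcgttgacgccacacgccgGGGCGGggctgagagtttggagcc
Mdh2, chr5:135778399-135778698: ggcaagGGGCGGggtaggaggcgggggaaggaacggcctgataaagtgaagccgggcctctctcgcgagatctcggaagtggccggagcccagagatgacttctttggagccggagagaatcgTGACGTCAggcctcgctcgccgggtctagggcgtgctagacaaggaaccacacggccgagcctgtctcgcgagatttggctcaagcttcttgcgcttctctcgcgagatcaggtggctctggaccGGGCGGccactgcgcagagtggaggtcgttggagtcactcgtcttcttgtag

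All windows of the matched members were searched on both strands for 5 motifs chosen with the values known, and the matches are descriptions of letters. The cAMP response element, the site named for the factor CREB, was found in Ogdh, beginning 51 bases before the RefSeq start of the window shown. It was also found in Mdh2, beginning 127 bases before the RefSeq start. In GENCODE the Mdh2 gene begins at 135778480, inside that window, so this distance holds for the RefSeq start only. The element was in 1.79% of the 32851 windows of that length in the table. These shares count single windows, while Ogdh has 6. The GC box was in windows of 6 members, Cs, Ogdh, Suclg2, Fh1, Mdh1 and Mdh2, and in 35.7% of all windows. The half-site of the estrogen-related receptors, AAGGTCA, was in another start window of Ogdh and in 4.72% of all windows. The ETS motif CCGGAAG was in Idh3b and in 8.86% of all windows. The direct repeat AGGTCANAGGTCA read by PPAR receptors was in 0 of the 8 matched members and in 0.0396% of all windows. AAGGTCA and the direct repeat share the letters AGGTCA, and the other motifs share no such run.

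Cs encodes citrate synthase, which joins acetyl-CoA to oxaloacetate and opens the cycle. On GRCm38 it lies at chr10:128337734-128362479 on the plus strand. Cs had 4803, 5498, 5053 and 5091 normalized counts in Fasted 1 to 4, against 6391, 6487, 6538, 6277 and 5599 in Fed 1 to 5. The highest fasted library, Fasted 2, stayed below the lowest fed library, Fed 5, and the other 4 fed libraries lay close together. Means were 5111 ± 288 in the fasted group and 6258 ± 382 in the fed group (SD, n = 4 and n = 5), a log2 change of -0.29 (SE 0.07, limma adjusted p = 0.0192). The 95% confidence interval of the change lay between -0.44 and -0.14. The call was lost without Fasted 1 (adjusted p = 0.0622), without Fasted 3 (0.0555) and without Fasted 4 (0.0577). Csl, an intron-less relative of Cs on chromosome 10, had 103 to 140 normalized counts in the fasted group and 128 to 203 in the fed group. How reads shared by Cs and Csl were counted is not given in the sources used here, but the level of Csl is small beside that of Cs.

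Idh3a encodes the catalytic subunit of NAD-dependent isocitrate dehydrogenase, the first of the cycle's steps that release carbon dioxide. The gene lies at chr9:54586334-54604661 on the plus strand. Idh3a had 2864, 3428, 3011 and 2803 normalized counts in Fasted 1 to 4, against 4242, 4030, 3791, 3779 and 3698 in Fed 1 to 5. Groups did not overlap, with Fasted 2 the nearest fasted library to the fed range. Means were 3026 ± 282 in the fasted group and 3908 ± 224 in the fed group (SD, n = 4 and n = 5), and the log2 change was -0.37 (SE 0.07, limma adjusted p = 0.00957). Its 95% confidence interval lay between -0.53 and -0.21. This was the member whose call held under each alternative run, with adjusted p at most 0.0391 when a library was left out.

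Idh3b, at chr2:130279309-130284547 on the minus strand, encodes a non-catalytic subunit of the same enzyme. Its values overlapped throughout, with 6333, 6078, 6499 and 6575 normalized counts in Fasted 1 to 4 and 6205, 6677, 5618, 6817 and 5458 in Fed 1 to 5. The log2 change was 0.05 (SE 0.08, 95% confidence interval -0.12 to 0.23, limma adjusted p = 0.694), so a fall of the size fitted for Idh3a lies outside this interval. Leaving out Fed 3 or Fed 5 brought it to 0.02 or 0.01, and leaving out Fed 2 or Fed 4 to 0.09. The subunit Idh3g, which is not a member, had 5890, 5901, 6109 and 5872 in the fasted libraries and 5901, 6408, 3677, 6429 and 4988 in the fed libraries (log2 change 0.15, SE 0.14, adjusted p = 0.557), and the change was 0.01 without Fed 3.

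Ogdh encodes the first component of the 2-oxoglutarate dehydrogenase complex, which releases carbon dioxide at the next oxidative step. It lies at chr11:6291633-6356642 on the plus strand. The level of Ogdh was 18056, 17278, 18655 and 17479 normalized counts in Fasted 1 to 4, against 20524, 22773, 23893, 21155 and 18687 in Fed 1 to 5. The groups were separated by little, since Fasted 3 lay just under Fed 5. Means were 17867 ± 621 in the fasted group and 21407 ± 2018 in the fed group (SD, n = 4 and n = 5). The log2 change was -0.26 (SE 0.08, 95% confidence interval -0.44 to -0.08), with a limma adjusted p of 0.0691. It passed without Fed 5 (adjusted p = 0.0209) and with DESeq2 on the recovered reads (0.0122).

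Suclg1, at chr6:73248382-73276911 on the plus strand, encodes the alpha subunit shared by both forms of succinyl-CoA ligase, which make GTP or ATP. It had 6618, 8785, 7251 and 7019 normalized counts in Fasted 1 to 4, against 6262, 6313, 6621, 6905 and 6575 in Fed 1 to 5. Fasted 2 stood above the rest, while Fasted 1 lay inside the fed range. The log2 change was 0.18 (SE 0.08, limma adjusted p = 0.197), and 0.09 without Fasted 2. Suclg2, at chr6:95473009-95718800 on the minus strand, encodes the beta subunit of the GTP-forming enzyme. Its levels were 4622, 4494, 4622 and 4609 in the fasted libraries, against 4516, 4581, 3628, 5057 and 3923 in the fed libraries, so the fed range spanned the fasted one (log2 change 0.09, SE 0.09, adjusted p = 0.568). The change of Suclg2 was 0.03 without Fed 3, 0.06 without Fed 5 and 0.15 without Fed 4.

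Fh1 encodes fumarate hydratase, which turns fumarate into malate, and lies at chr1:175600374-175625635 on the minus strand. Its 4 fasted libraries had 5125, 5338, 5408 and 5178 normalized counts, against 4885, 5209, 3641, 5150 and 4180 in Fed 1 to 5. Fed 2 and Fed 4 lay among the fasted libraries and Fed 3 was lowest. The log2 change of 0.20 (SE 0.10) did not pass (limma adjusted p = 0.232), and it was 0.12 without Fed 3.

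Mdh2 encodes the mitochondrial malate dehydrogenase, which returns malate to oxaloacetate, and lies at chr5:135778480-135790398 on the plus strand. Mdh2 had 4430, 4493, 4514 and 4262 normalized counts in Fasted 1 to 4, against 5417, 5821, 8865, 5756 and 4999 in Fed 1 to 5. Each fasted library was below each fed library, and Fed 3 stood far above the other fed libraries. Means were 4424 ± 114 in the fasted group and 6172 ± 1541 in the fed group (SD, n = 4 and n = 5), with a log2 change of -0.45 (SE 0.14, 95% confidence interval -0.75 to -0.15, limma adjusted p = 0.0607). Without Fed 3 the change was smaller, -0.31, and passed (adjusted p = 0.0139), as it did without Fed 5 (0.033) and with DESeq2 on the recovered reads (0.0124).

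Mdh1 lies at chr11:21556787-21572367 on the minus strand, and its cytosolic enzyme exchanges malate and oxaloacetate in the malate-aspartate shuttle. Mdh1 had 25976, 25259, 26619 and 25507 normalized counts in Fasted 1 to 4, against 29635, 31377, 26875, 33024 and 21802 in Fed 1 to 5. Fed 5 alone lay below the fasted libraries and the other 4 fed libraries lay above them. The log2 change was -0.13 (SE 0.11, 95% confidence interval -0.38 to 0.12, limma adjusted p = 0.507), and -0.22 without Fed 5, with an adjusted p of 0.093.

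**Figure D1:**
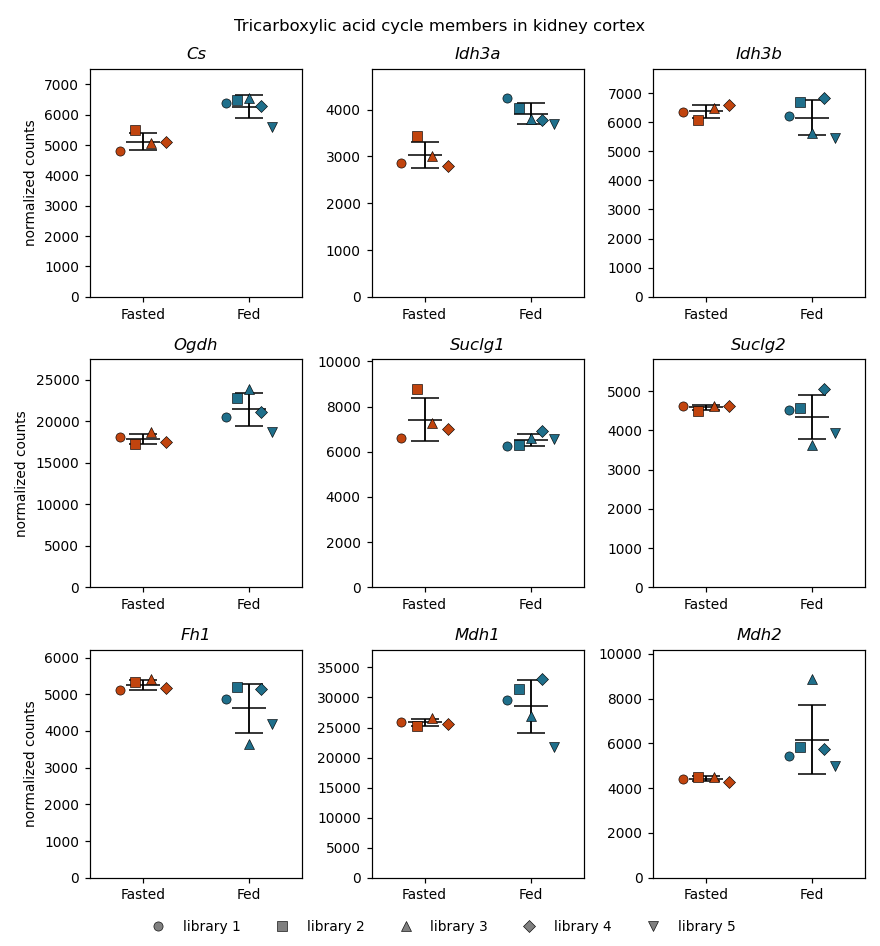
Normalized counts of the 9 members on linear axes from 0, with fasted libraries on the left and fed libraries on the right of each panel; a marker shape gives the library number within its group and pairs nothing, and bars are mean ± SD. Cs, Idh3a, Ogdh and Mdh2 have all 4 fasted points below the 5 fed points, and in Mdh2 the Fed 3 point stands at 8865.

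The 13 other genes of the cycle were taken as a list that includes the remaining dehydrogenase subunits, the ATP-forming ligase and succinate dehydrogenase. None was called by limma, 1 had an unadjusted p under 0.05, and DESeq2 on the recovered reads also called 0. Their median log2 change was -0.06, 9 of 13 were below 0, and none had groups without overlap. Over all 22 cycle genes 2 were called and 14 lay below 0. Over all tested genes 5.25% were called lower and 5.72% higher, and 49.8% lay below 0. Groups without overlap made up 6.64% of all tested genes with the fasted group lower and 7.62% with it higher.

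The gene with the small unadjusted p was Dld, the dihydrolipoamide dehydrogenase shared by the 2-oxoglutarate, pyruvate and branched-chain complexes. Dld had 6824, 7255, 6927 and 6414 normalized counts in the fasted libraries, against 8190, 7735, 9100, 8496 and 6845 in the fed libraries. Fed 5 lay inside the fasted range and the other fed libraries lay above it. The log2 change was -0.23 (SE 0.08, limma adjusted p = 0.102), and without Fed 5 it was -0.29 and passed (limma adjusted p = 0.0229). Dlst, the middle component of the 2-oxoglutarate complex, averaged 9843 ± 590 in the fasted group and 10888 ± 1013 in the fed group (log2 change -0.14, adjusted p = 0.296).

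The 4 succinate dehydrogenase genes, which also serve the respiratory chain as complex II, had changes near 0 and below it. Sdha averaged 19330 ± 595 normalized counts in the fasted group and 21097 ± 1251 in the fed group, a log2 change of -0.12 (SE 0.07). The log2 changes were -0.05 for Sdhb, -0.08 for Sdhc and -0.09 for Sdhd, with SE between 0.07 and 0.10. Idh2, the NADP-dependent mitochondrial isocitrate dehydrogenase, had a change of 0.03 (SE 0.10), and Sucla2, the ATP-forming ligase's beta subunit, -0.11 (SE 0.09). The less abundant genes Dhtkd1, Ogdhl and Mrps36 had log2 changes of 0.18, -0.03 and -0.06. With a library left out the changes of Idh2, Ogdhl and Mrps36 fell on either side of 0. Dhtkd1 and Ogdhl are relatives of Ogdh, and the Mrps36 protein is known as a small component of the 2-oxoglutarate complex.

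**Figure D2:**
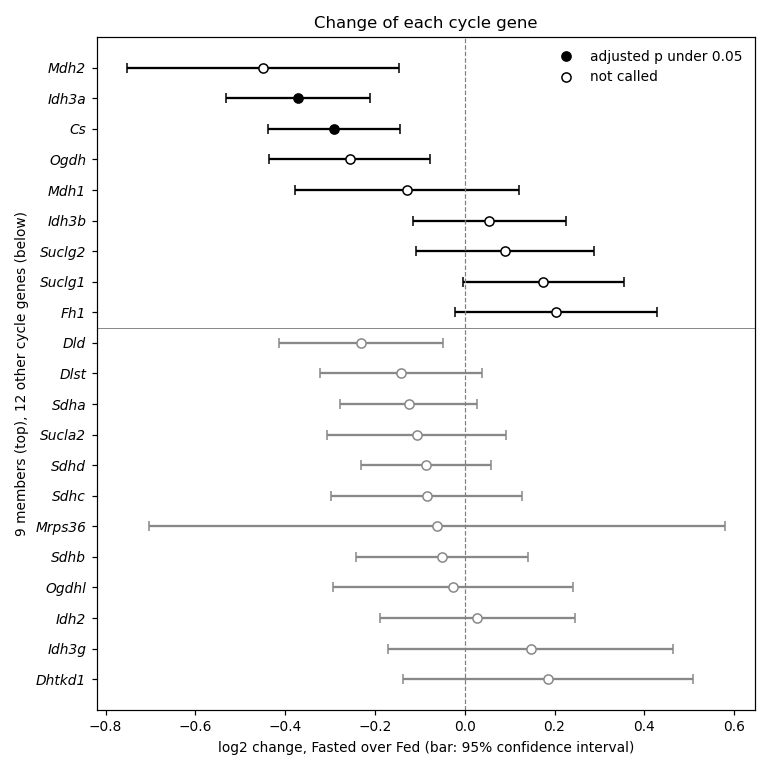
Log2 change, Fasted over Fed, on the x axis for the 9 members and 12 other cycle genes, with 95% confidence intervals; filled points have an adjusted p under 0.05. Idh3a at -0.37 and Cs at -0.29 are filled, and all intervals of the lower block except that of Dld include 0.

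Levels were compared between genes per kilobase of merged coding-transcript exon in GENCODE M21. In the fed group the order of mean normalized counts per kilobase was Mdh1 (13451), Ogdh (4812), Suclg1 (4302), Mdh2 (4239), Idh3b (3809), Cs (2139), Fh1 (1750), Idh3a (1515) and Suclg2 (1154). In the fasted group the same genes had 12177, 4016, 4884, 3039, 3943, 1747, 1996, 1173 and 1219. Of the 8 neighbours in this order, Mdh1 over Ogdh and Idh3b over Cs kept their order in all 9 libraries. Cs was above Fh1 in 0 of 4 fasted and 5 of 5 fed libraries, and Ogdh above Suclg1 in 0 of 4 fasted and 4 of 5 fed libraries. Idh3a was above Suclg2 in 1 of 4 fasted and 5 of 5 fed libraries. Mdh2 was above Idh3b in 0 of 4 fasted and 2 of 5 fed libraries. Suclg1 over Mdh2 and Fh1 over Idh3a each held in 4 of 4 fasted and 4 of 5 fed libraries. Lengths come from an annotation that may differ from the one used for counting, so small gaps between genes are uncertain.

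Ratios between genes of the same step do not depend on the size factors, and 6 were compared by a two-sided exact permutation test over all regroupings of the libraries, whose smallest p is 0.0159. None passed after adjustment over the 6 pairs, and no pair had groups without overlap. With that smallest p no single pair could pass on its own, so the lack of a pass cannot show that the ratios were alike. The ratio of Idh3b to Idh3a was 2.21, 1.77, 2.16 and 2.35 in Fasted 1 to 4, against 1.46, 1.66, 1.48, 1.80 and 1.48 in Fed 1 to 5. Fasted 2 and Fed 4 crossed narrowly and the other libraries were apart. The log2 difference was 0.43 (exact permutation p = 0.0317, adjusted p = 0.0714). Idh2 to Idh3a averaged 4.38 ± 0.48 in the fasted group and 3.33 ± 0.44 in the fed group (SD, n = 4 and n = 5), a log2 difference of 0.40 (exact permutation p = 0.0476, adjusted p = 0.0714).

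Mdh2 to Mdh1, the mitochondrial over the cytosolic enzyme, was 0.171, 0.178, 0.170 and 0.167 in the fasted libraries, against 0.183, 0.186, 0.330, 0.174 and 0.229 in the fed libraries. Fasted libraries were alike, Fed 4 lay among them and Fed 3 stood apart. The log2 difference was -0.32 (exact permutation p = 0.0317, adjusted p = 0.0714) and -0.16 without Fed 3. Suclg2 to Sucla2, the GTP-forming over the ATP-forming subunit, averaged 0.835 ± 0.023 in the fasted group and 0.733 ± 0.085 in the fed group (log2 difference 0.20, exact permutation p = 0.0476, adjusted p = 0.0714). Ogdh to Dlst differed by -0.11 (exact permutation p = 0.111, adjusted p = 0.133) and Suclg2 to Suclg1 by -0.09 (exact permutation p = 0.524).

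**Figure D3:**
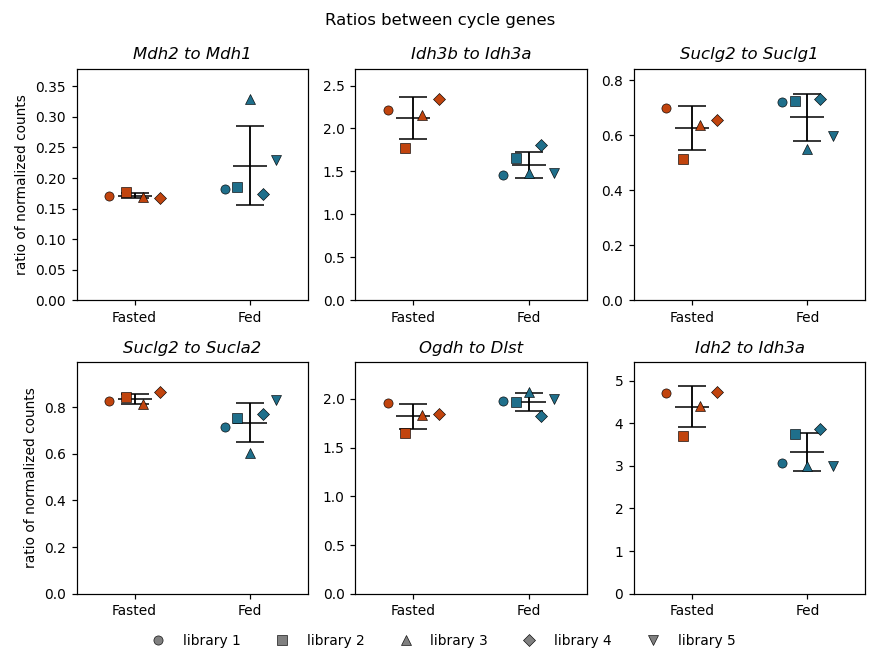
Ratios of normalized counts within a library for 6 pairs of cycle genes, on linear axes from 0, fasted libraries left and fed libraries right, with mean ± SD. For Idh3b to Idh3a only Fasted 2 at 1.77 and Fed 4 at 1.80 cross, and for Mdh2 to Mdh1 Fed 3 stands at 0.330.

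For most members the spread was wider in the fed group than in the fasted group. The SD as a percentage of the mean was larger in the fasted group for Idh3a (9.31%, against 5.73% in the fed group). It was also larger there for Suclg1 (12.8% against 3.97%), and was similar for Cs (5.63% against 6.10%). Fed 5 had the lowest fed value for 6 of the 9 members and for 8 of the 13 other cycle genes, and was above the fed median for none of the members. Its Cs, Idh3a, Ogdh and Mdh2 values were the fed values nearest to the fasted range. Called genes placed Fed 5 differently. In Pdk4, the pyruvate dehydrogenase kinase called higher in the fasted group, Fed 5 had the lowest level of all libraries. It had 251 normalized counts, against 11899 to 13574 in the fasted group. In Glud1, also called higher, Fed 5 had 16312, near the fasted range of 16706 to 28375. The other fed libraries had 12181 to 14031 of Glud1. In Slc34a1, called lower, the 104451 of Fed 5 lay inside the fasted range of 86910 to 105444. These genes were picked after their values were seen, and what sets Fed 5 apart was not tested. In Fed 3 the members went apart: on the log2 scale Mdh2 was 0.62 above the fed median and Fh1 0.42 below it. Fed 3 also had 5.53% of its normalized counts in the ribosomal RNA entry Rn45s and Fasted 1 had 2.36%, against 0.513% to 1.38% in the other libraries. Without these 2 libraries Idh3a (adjusted p = 0.0393) and Mdh2 (0.0371) passed and Cs did not (0.0825).

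**Figure D4:**
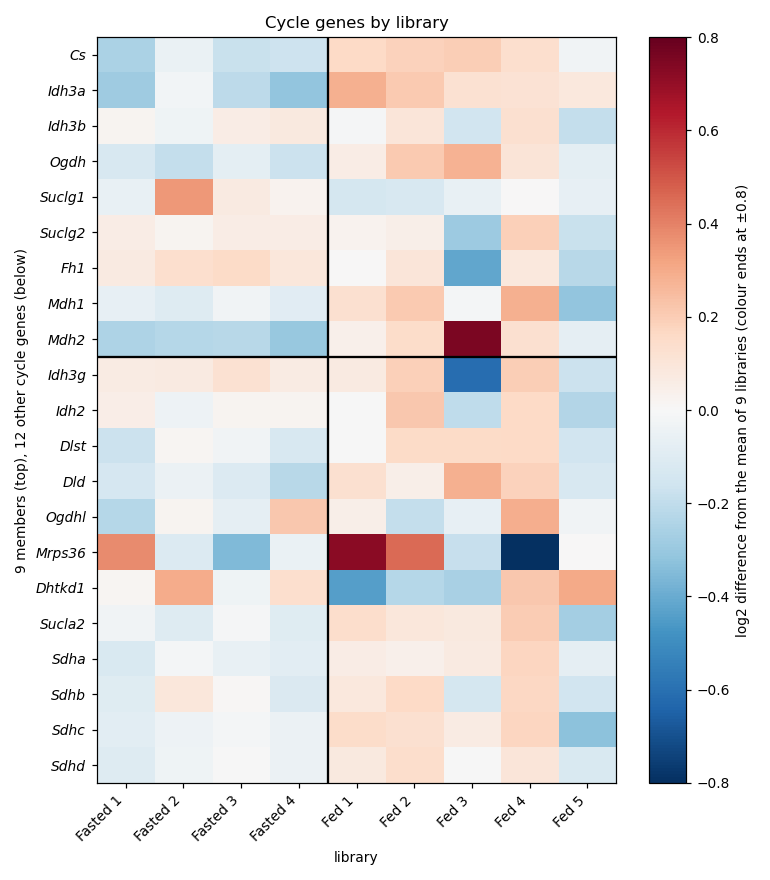
Colour gives the log2 difference of each cycle gene drawn, in each library, from that gene's mean over the 9 libraries, with fasted libraries on the left, members above and other cycle genes below the line. Cs, Idh3a, Ogdh and Mdh2 are below their mean in all 4 fasted libraries, Fed 5 is pale or blue for most genes, and Mdh2 and Fh1 take opposite colours in Fed 3.

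The tissue markers bear on the same libraries. Summed over 12 proximal tubule markers, the level was 568480 to 644250 normalized counts in the fasted group and 603993 to 840015 in the fed group, with the lowest fed sum in Fed 5. Of these markers 2 were called lower, Slc34a1 and Gatm, and none higher, against 5.25% of all tested genes called lower and 5.72% called higher. The same shares stand beside the counts of each marker list below. Gatm, which makes the precursor of creatine, held with each library left out and Slc34a1 only without Fed 5. The median log2 change of the 12 markers was -0.32, and 9 lay below 0, as did 49.8% of all tested genes. With an unadjusted limma p under 0.05, 6 had a change below 0 and 1 had a change above 0. In bulk cortex, fewer cells of a type and less RNA per cell cannot be told apart, and the part of this marker difference in the members' values was not tested. The called markers of other lists were spread over both directions, for the thick ascending limb (1 of 6 called lower), distal convoluted tubule (1 of 4 higher), collecting duct (0 of 5), intercalated cells (2 of 6 lower), podocytes (0 of 5), endothelium (1 higher and 1 lower of 6), fibroblasts and smooth muscle (1 higher and 1 lower of 6) and macrophages and lymphocytes (0 of 5 tested). All 6 intercalated markers had a change below 0 (median log2 change -0.22), 3 of them with an unadjusted limma p under 0.05. Changes below 0 also numbered 3 of 4 for the distal convoluted tubule, 3 of 5 for the collecting duct and 4 of 5 for podocytes. They numbered 4 of 6 for fibroblasts and smooth muscle, 2 of 6 for the thick ascending limb, 2 of 6 for endothelium and 0 of 5 for macrophages and lymphocytes. Apoc3 was the 1 of 6 hepatocyte markers called higher, and Plin1 and Fabp4 were the 2 of 3 tested adipocyte markers called higher. The remaining tested adipocyte marker had a change below 0 with an unadjusted limma p under 0.05. Plin1 was near the floor, with 6.51, 70.7, 1.92 and 10.7 normalized counts in Fasted 1 to 4, against 0 to 1.84 in the fed group. The summed hepatocyte markers overlapped, with 4448 to 11186 normalized counts in the fasted group and 2108 to 15269 in the fed group. The summed adipocyte markers also overlapped, with 981 to 1570 in the fasted group and 1017 to 2439 in the fed group. The 4 globin genes of the red cell list were listed at 0.

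Genes around the cycle included larger changes than any member, in both directions. Of 79 tested genes in 6 lists of entry, filling, carriers, cytosolic partners, regulators and mitochondrial content, 10 were called higher and 1 lower by limma. Over all tested genes limma called 5.72% higher and 5.25% lower, shares that also stand beside the counts of each list below. The split of the 79 genes was 11 higher and 8 lower with DESeq2 on the recovered reads, 11 and 8 at a limma adjusted p under 0.1, and 9 and 6 without Fed 5. At the pyruvate entrance 2 of 13 rose and 1 fell. Pdk4, which inactivates pyruvate dehydrogenase, averaged 12504 ± 751 normalized counts in the fasted group and 582 ± 324 in the fed group (log2 change 4.59, SE 0.31), and Pdk1, a kinase of the same family, rose by 0.75 (SE 0.09). Pdp2, a phosphatase that reverses these kinases, fell by 0.64 on the log2 scale (SE 0.08), with 1597 ± 56.2 in the fasted group and 2494 ± 257 in the fed group.

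Among 15 tested genes that fill the cycle or draw from it, limma called 4 higher and none lower. DESeq2 on the recovered reads also called Oxct1, which uses ketone bodies, and Pcca, a subunit of propionyl-CoA carboxylase, both lower and both named after their values were seen. Their limma log2 changes were -0.35 for Oxct1 (SE 0.12, adjusted p = 0.0895, called without Fed 5) and -0.25 for Pcca (SE 0.08, adjusted p = 0.0719), and in limma 2 genes of this list had a change below 0 with an unadjusted p under 0.05. Pcx, pyruvate carboxylase, which makes oxaloacetate, averaged 36043 ± 2803 normalized counts in the fasted group and 22790 ± 3339 in the fed group (log2 change 0.67, SE 0.11, limma adjusted p = 0.00448). Pck1, the cytosolic phosphoenolpyruvate carboxykinase that draws oxaloacetate into glucose synthesis, rose by 2.13 (SE 0.30), and its mitochondrial relative Pck2 by 0.47 (SE 0.09). Glud1, glutamate dehydrogenase, which yields 2-oxoglutarate, rose by 0.65 (SE 0.14), with Fasted 2 highest at 28375.

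Of 8 carriers of cycle intermediates limma called 2 higher and none lower. Slc25a10, the mitochondrial dicarboxylate carrier, had 12450, 14987, 14476 and 14551 normalized counts in the fasted libraries, against 6835, 8536, 7886, 9670 and 7150 in the fed libraries, with no overlap (log2 change 0.82, SE 0.10). Slc13a3, a plasma membrane dicarboxylate transporter, rose by 0.41 (SE 0.10), a call lost without Fasted 3 and without Fed 1. DESeq2 on the recovered reads added Slc13a2, a related transporter, as higher and Slc25a21, a mitochondrial oxodicarboxylate carrier, as lower, both named after their values were seen. In limma 1 carrier had a change below 0 with an unadjusted p under 0.05. Of 8 tested assembly and regulatory genes 1 rose, Sirt3, a mitochondrial deacylase (0.37, SE 0.11, adjusted p = 0.044), and its call held only without Fed 2 or Fed 4 when each of the 9 libraries was left out in turn. None of 6 cytosolic partner genes was called by limma and 1 was called by DESeq2 on the recovered reads. It was Idh1, the cytosolic NADP-dependent isocitrate dehydrogenase, named after its values were seen, which had an adjusted p of 0.0837 in limma. In limma 2 of the 6 had an unadjusted p under 0.05.

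Of 29 genes of mitochondrial content and its regulators limma called 1 higher, Tomm20, a receptor of the outer membrane import machinery (0.43, SE 0.12, adjusted p = 0.0421), and none lower. With DESeq2 on the recovered reads 3 more were called, Esrra, Hspe1, a chaperonin subunit, and Mfn2, a fusion protein of the outer membrane, each lower and named after the values were seen. In limma 6 genes of this list had an unadjusted p under 0.05, 3 with a change below 0 and 3 with a change above 0. The call of Tomm20 held without Fed 4 or Fed 5 and was lost without any of the other 7 libraries. Their summed level was 99808 to 107038 normalized counts in the fasted group and 100265 to 107896 in the fed group, so the groups overlapped almost fully, beside 78523 to 81632 and 74921 to 93921 for the 9 members. Esrra, the estrogen-related receptor alpha, known to act on genes of mitochondrial metabolism, had a log2 change of -0.34 (SE 0.10, limma adjusted p = 0.0516), and passed without Fasted 2, Fed 3 or Fed 5, with TMM or upper-quartile scaling, with a filter at a mean of 100 and with DESeq2. The related receptors Esrrb and Esrrg had log2 changes of 0.27 (SE 0.11) and -0.15 (SE 0.08). Neither was called, and both were named after their values were seen.

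Outside the members, a search was made for the genes whose levels followed the mean standardised profile of the 9 members most closely. It covered 11017 genes whose mean reached 100 normalized counts, after genes with predicted, unnamed or pseudogene names were left out. Likeness was Pearson's r over the 9 libraries after each group's mean was taken out, and the libraries share their preparation and size factors. The members did not all follow this mean profile together. Taken in the same way, r between 2 members ran from -0.62 for Fh1 and Mdh2 to 0.93 for Suclg2 and Fh1. The nearest 5 were Coq4 (r = 0.978, Spearman's rho 0.883), Slc34a1 (r = 0.976, rho 0.90), Slc25a39 (r = 0.974, rho 1), Atp5a1 (r = 0.973, rho 0.983) and Echs1 (r = 0.973, rho 0.950). Without Fed 4 and Fed 5, the 2 libraries farthest from the profile's median, their r lay between 0.90 and 0.967. As many as 100 genes had an r over 0.9, so these 5 are the top of a broad group. Coq4 acts in coenzyme Q synthesis, Slc34a1 is the proximal tubule sodium-phosphate transporter, Slc25a39 is a mitochondrial carrier, Atp5a1 is a subunit of ATP synthase and Echs1 is a hydratase of fatty acid oxidation. Of the 5 only Slc34a1 was itself called, at a log2 change of -0.58 (SE 0.16, limma adjusted p = 0.0377), a call that held without Fed 5 and was lost without any of the other 8 libraries (adjusted p 0.0522 to 0.117).

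In the authors' deposited table the adjusted p was under 0.05 for 4 members, Idh3a (0.00015), Cs (0.000792), Mdh2 (0.013) and Ogdh (0.0135). The log2 fold changes in the authors' deposited table were -0.36 for Idh3a, -0.29 for Cs, -0.43 for Mdh2 and -0.25 for Ogdh. The other 5 members had an adjusted p between 0.163 and 0.76 in the authors' deposited table. Of 705 annotation terms in the authors' deposited chart, 28 held a member, 9 held both Cs and Idh3a, none held another member, and none was named for the cycle.

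**Figure D5:**
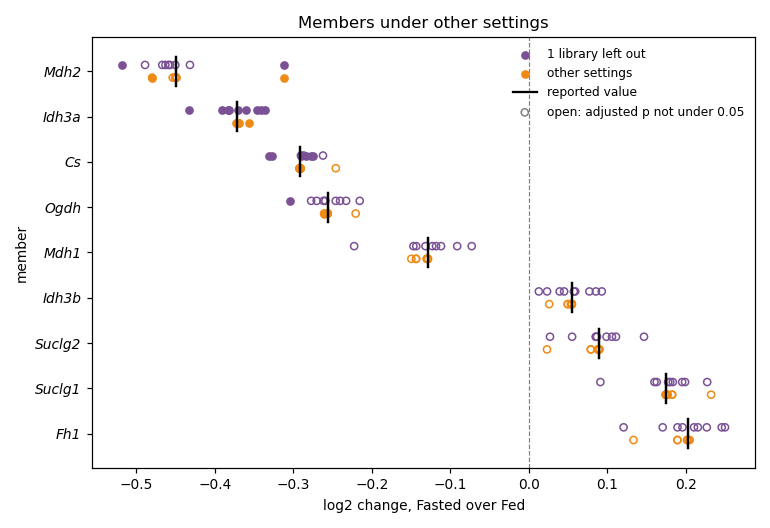
Log2 change of each member, Fasted over Fed, under the reported fit (black line), with 1 library left out (purple) and under other settings (orange); open points did not reach an adjusted p under 0.05. Idh3a is filled throughout, Cs is open in 4 of the settings, and no member's points lie on both sides of 0.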

How the data were processed

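RNA from pieces of kidney cortex was sequenced as TruSeq libraries, per the labels' protocols. The submitters' processing notes name FastQC, TopHat2 2.0.9, HTSeq 0.9.1 and DESeq2 (given as 3.5), and the builds mm10 and hg19. The annotation and strand setting are not given in the sources used here. The signal deposited for each sample is a read count that the authors scaled with a size factor of the library. All 161194 values above 0 (100%) gave whole reads within 0.01 reads. The log2 fold changes, p-values and adjusted p-values in the table are the authors', and its score column divides the fold change by the standard error. A fold enrichment ratio and p-values per annotation term were also deposited. Sample columns left unused numbered 0.

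Limma 3.58.1 (R 4.3.3) was fitted to log2(value + 1) with a mean-variance trend for genes with a mean of 10 or more, two-sided, and p-values were Benjamini-Hochberg adjusted over 15098 genes. Only the limma step was tested on simulated data, and whether it calls changes as small as those of the members was not tested. The 6 ratios used exact permutation tests (scipy 1.17.1). Named genes were all members, the other cycle genes, the called genes of the neighbouring lists and the 5 of greatest likeness, and exceptions are marked. A gene of the list of other cycle genes is not reported here and stays in that list's counts. Alternatives were other pseudocounts, filters, scalings and thresholds, voom, libraries left out, and on recovered reads DESeq2 1.42.0 and edgeR 4.0.16. Libraries are numbered in accession order within a group. The members, lists, tests and alternatives were chosen with earlier results of these data known. Positions are from GENCODE M21 (GRCm38), promoters from RefSeq (GRCm38.p6).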

Additional observations from a re-analysis of the deposited data

Results flagged for a closer look

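Among 66 groups of values, 33 cycle and called neighbouring genes in 2 groups each, 6 held a library far from the rest, and chance gives about 1 in 20. Cs had 5599 normalized counts in Fed 5, against 6277 to 6538 in the other fed libraries. Suclg2 had 4494 in Fasted 2, against 4609 to 4622 in the other fasted libraries, which lie within a narrow range. Mdh2 had 8865 in Fed 3, against 4999 to 5821 in the other fed libraries. Idh3g had 6109 in Fasted 3, against 5872 to 5901 in the other fasted libraries. Sdhc had 5400 in Fed 5, against 7101 to 7618 in the other fed libraries. Slc13a3, a dicarboxylate transporter, had 23847 in Fasted 3, against 19190 to 19870 in the other fasted libraries.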

How the results depend on the processing

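No paired analysis was possible because the labels give no replicate numbers that the groups share. The 2 calls among the 9 members became 4 with DESeq2, at an adjusted p under 0.1, and without Fed 5, each time Cs, Idh3a, Mdh2 and Ogdh. They became 1, Idh3a, without Fasted 1, 3 or 4, so that leaving out a library gave 1 to 4. For the 13 other cycle genes the count of 0 became 1 without Fed 5 (range 0 to 1). For the 11 neighbouring genes, 10 higher and 1 lower, it was 19 with DESeq2 and at an adjusted p under 0.1, each time 11 higher and 8 lower, and 8 to 15 with a library left out, when 7 to 10 were higher and 1 to 6 lower. Over all genes 1656 were called, 2628 at an adjusted p under 0.1, 1068 without Fed 3 and Fasted 1, and 861 to 1959 with a library left out. The groups without overlap numbered 4 to 5. The Suclg2 to Suclg1 ratio changed sign without Fasted 2 (0.0078, range -0.15 to 0.0078). The causes were not tested. No member changed direction under any setting run, and no scaling moved the median of all genes by over 0.1.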
